A study of Mus musculus with 18 samples.

Results

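The 10 synaptotagmin genes described here were Syt1, Syt2, Syt3, Syt4, Syt5, Syt6, Syt7, Syt9, Syt11 and Syt13. They were chosen by symbol from the 35734 genes of the authors' deposited table for fibroblasts, and the choice was made with the values of that table in view. The fold changes of the 10 genes in that table are therefore a description and carry no test. Their open chromatin in retinal cells comes from other libraries, but the choice was made with earlier results of these data known, so those values are a description as well. It was measured in the windows of the same 10 genes among 21887 gene windows. A window here is the gene body with 2 kb on both sides, in mm10, the UCSC name of GRCm38.

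Synaptotagmins are membrane proteins of secretory vesicles that carry a pair of C2 domains, modules that in many members bind calcium and phospholipid. Calcium binding by Syt1, Syt2 and Syt9 triggers fast release of transmitter, Syt7 has higher calcium affinity and serves slower release and vesicle refilling, and Syt3, Syt5 and Syt6 are further calcium-binding members. Syt4 and Syt11 form a subfamily in which a residue of the first C2 domain that coordinates calcium is replaced, and Syt13 lacks most of the calcium-binding residues. In the retina, photoreceptors and bipolar cells release glutamate continuously from ribbon synapses, while Muller glia are the resident glial cells.

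The study asked how factors that set temporal identity in retinal progenitors, Ikzf1 and Ikzf4, act in direct neuronal reprogramming. In the bulk experiments, mouse embryonic fibroblasts (MEFs) of the R26-M2rtTA line on C57BL/6, which carries the doxycycline-dependent activator, received lentiviral Brn2 and Myt1l. In the comparison groups the condition was Brn2+Myt1l or Brn2+Myt1l+Ikzf1+Ikzf4, with 3 RNA-seq libraries each at 48 hours of doxycycline. Brn2 (gene Pou3f2) and Myt1l were thus part of both conditions. In the retinal experiment, the control library was labelled Muller glia of GLAST-CRE ERT2 ; RosaYFP mice on C57BL/6 with mCherry, in which a glial promoter drives a tamoxifen-dependent recombinase, while the labels of the Ikzf1/4 library repeat its title in place of tissue, cell type, mouse line and strain. Both were labelled with tamoxifen at 14 days, while the run names in the headers of their fragment files carry 48 h, and no source used here settles which time applies. Each condition had 1 library of chromatin accessibility from a joint RNA and ATAC assay of single nuclei.

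The labels of the fibroblasts were first set against marker genes. In the authors' deposited table, Ikzf1 and Ikzf4 were higher with the added factors by 7.76 and 8.54 on the log2 scale, Pou3f2 differed by -0.05, and Myt1l was higher by 0.50 (SE 0.17, adjusted p 0.0157). All 8 fibroblast markers examined (Col1a1, Col1a2, Col3a1, Dcn, Thy1, Vim, Pdgfrb and Fn1) had a mean level above the median of the tested genes in the authors' deposited table. Of these 8 markers, 7 were called lower with Ikzf1 and Ikzf4 in the authors' deposited table, from a log2 fold change of -0.32 for Pdgfrb to -1.77 for Dcn, and Fn1 differed by 0.14 (adjusted p 0.163). The part of these differences in the synaptotagmin values was not tested. The 6 RNA-seq libraries held between 34966344 and 44270426 estimated reads. No source used here pairs their transcripts with genes, so the synaptotagmins have no values per library, and an edgeR quasi-likelihood fit over the libraries was made per transcript: 7.11% of 43526 transcripts passed an adjusted p of 0.05. Their count of 3095 fell to between 728 and 1701 when any 1 of the 6 libraries was left out and to 8 with a replicate block. Fewer cells expressing a gene and less RNA per cell cannot be told apart in these bulk samples.

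The labels of the retinal libraries were set against clusters of nuclei built without the windows of the synaptotagmins and of other release genes. The control library held 1872 cells after filtering (median 6214.5 fragments) and the Ikzf1/4 library 685 (median 10847), with 3 cell barcodes in both. Although the control library was labelled Muller glia, 632 of its 1872 cells (33.8%, Wilson 95% interval 31.7 to 35.9) fell in the clusters where Muller glia markers were raised, against 134 of 685 (19.6%, 16.8 to 22.7) in the Ikzf1/4 library. Cells are not replicates and each condition had 1 library, so these intervals cover counting error only and no test between conditions was possible. The other cells fell in bipolar-like clusters 0 and 4, cone-like cluster 2, rod-like cluster 5, amacrine-like cluster 7, microglia-like cluster 6 and an unnamed cluster 8. Cluster 1 and cluster 3 both had all 10 Muller glia markers raised, but cluster 3 had Gfap and Pax6, listed for astrocytes and amacrine cells, and none of its own markers among its 10 leading genes, so it is called by its number alone and values are compared by cluster number. Bipolar-like cluster 0, with 7 of 10 bipolar markers raised, also had none of them among its 10 leading genes, but none of another list either. Clusters 0 to 5 held at least 50 cells of each library, and only these are compared between libraries. A cluster called highest or lowest is so among these clusters, unless stated.

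In fibroblasts, Syt4 had the largest difference of the 10 genes. The authors' deposited table gives Syt4 (ENSMUSG00000024261) a log2 fold change of -2.32 (SE 0.11, adjusted p 1.76e-101) with Ikzf1 and Ikzf4 against without, at a mean of 984 normalised counts. By log2 fold change it stood at rank 2 from the lowest of 16757 genes with an adjusted p in the authors' deposited table. Syt4 resides on dense core vesicles and Golgi membranes, and its transcription is known to respond to neuronal activity. Its closest relative Syt11, in which the same residue is replaced, differed by 0.13 (SE 0.08, adjusted p 0.208) at a mean of 8003 in the authors' deposited table. The pair thus had one member among the most reduced genes and one whose difference did not pass the threshold of 0.05.

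Among the calcium sensors of fast release, Syt1 was lower by a log2 fold change of -0.47 (SE 0.06, adjusted p 4.04e-12) at a mean of 7600 in the authors' deposited table. The other fast sensors were scarce: the authors' deposited table lists Syt2 at a mean of 3.93 with a log2 fold change of 0.11 (SE 0.13) and Syt9 at a mean of 13.6 with 0.42 (SE 0.22), and neither passed the threshold. The remaining calcium-binding members moved in different directions. Syt3 was lower by -0.55 (SE 0.21, adjusted p 0.0362) and Syt5 was higher by 0.63 (SE 0.22, adjusted p 0.0193) on the log2 scale in the authors' deposited table. For Syt7, the slow and high-affinity sensor, the authors' deposited table gives -0.19 (SE 0.22, adjusted p 0.581), and for Syt6 0.01 with no adjusted p at a mean of 2.08. Syt13, the atypical member without calcium binding, was lower by -0.79 (SE 0.12, adjusted p 6.06e-09) at a mean of 401 in the authors' deposited table.

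**Figure D1:**
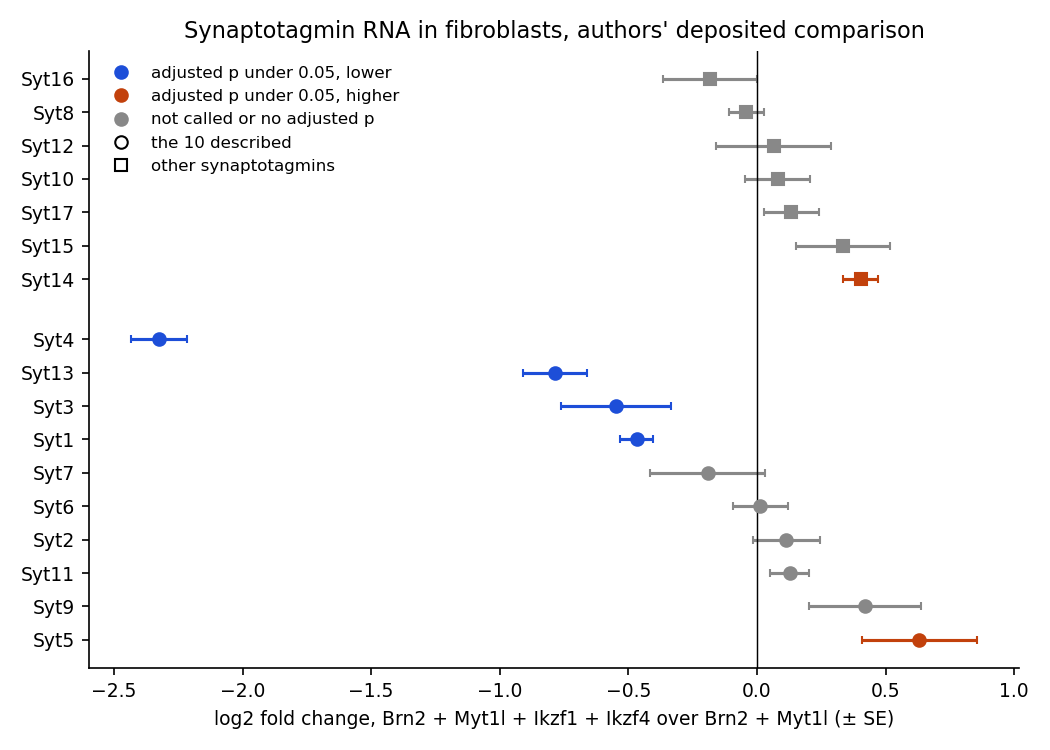
Log2 fold change (x axis, ± SE) of each synaptotagmin in fibroblasts with Ikzf1 and Ikzf4 added to Brn2 and Myt1l, as the authors' deposited table gives it, with the 10 genes as circles and 7 further synaptotagmins as squares. Syt4 lies at -2.32, while the other 9 of the 10 genes lie between -0.79 and 0.63.

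Of the 9 genes with an adjusted p, 4 were called lower and 1 higher in the authors' deposited table, where 15.4% of all 16757 tested genes were lower and 15.3% higher. Because this contrast chose the 10 genes, nothing is read from these counts. The fold changes are the authors' and may have been shrunk toward 0 for scarce genes such as Syt6, and no source used here says whether they were. The SE was 0.11 for Syt6 and 0.13 for Syt2, below the 0.22 of Syt7 at a mean of 93.2. A small SE of a scarce gene is therefore not read as precision. With a requirement of an absolute log2 fold change over 1, only Syt4 of the 10 genes passes in the authors' deposited table. No share of all tested genes was computed for this requirement, so nothing is read from that count either.

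The other genes of the release pathway give the setting of these values, from lists chosen with earlier results of these data known. Of all 16757 tested genes, 30.6% were called in the authors' deposited table, and nothing is read from the counts of the lists. Of the 7 further synaptotagmins in the authors' deposited table, 5 had an adjusted p and Syt14 alone was called, higher by 0.40 (SE 0.07), while Syt17 differed by 0.13 (SE 0.11) and Syt12 by 0.07 (SE 0.22). Among 10 tested synaptotagmin-like and related C2 proteins, 2 were lower and 1 higher in the authors' deposited table, with Sytl4, a granule docking protein, at -1.04 and Sytl1 at 0.98. Of 22 tested SNAREs and fusion factors, 4 were lower and 4 higher in the authors' deposited table, led by the lysosomal SNARE Vamp7 at -0.65 (SE 0.07). Active zone and priming genes split into 5 lower and 3 higher of 16 in the authors' deposited table, with the scaffold Erc2 at -1.06, the priming factor Unc13a at -0.94 and its relative Unc13d at 0.87. Synaptic vesicle proteins had 1 lower and 4 higher of 12 in the authors' deposited table. Dense core vesicle cargo and enzymes had 3 lower and 3 higher of 10 in the authors' deposited table: Scg5 stood at -1.06 and Chgb at 1.26. The median log2 fold change was -0.19 for the 9 tested synaptotagmins described here, -0.23 for the dense core list and 0.13 for the further synaptotagmins, against -0.00043 over all tested genes of the authors' deposited table. Since the genes and lists were chosen with such results known, nothing is read from these medians either.

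In retinal nuclei, the first start of Syt1 was more open in bipolar-like, cone-like and rod-like clusters than in clusters 1 and 3, and its sequence is shown with those of Syt9 and Syt11 for comparison. RefSeq promoter entries (GRCm38.p6) were found for 6 of the 10 genes: Syt1, Syt2, Syt3, Syt6, Syt9 and Syt11. The promoters of Syt1 and Syt9 were chosen for display after their values had been seen, and that of Syt11 as the relative of Syt4. Each line below gives the 250 bases before a listed start, read 5′ to 3′ in the direction of the gene, and capitals mark matches to the GC box GGGCGG on either strand, the hexamer bound by SP factors.
Syt1, first start, chr10:109010976-109011225, minus strand: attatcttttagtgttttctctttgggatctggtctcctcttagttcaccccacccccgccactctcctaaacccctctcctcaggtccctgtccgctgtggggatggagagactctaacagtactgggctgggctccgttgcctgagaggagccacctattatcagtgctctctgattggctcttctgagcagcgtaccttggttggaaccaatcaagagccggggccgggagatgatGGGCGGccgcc
Syt1, second start, chr10:109009112-109009361, minus strand: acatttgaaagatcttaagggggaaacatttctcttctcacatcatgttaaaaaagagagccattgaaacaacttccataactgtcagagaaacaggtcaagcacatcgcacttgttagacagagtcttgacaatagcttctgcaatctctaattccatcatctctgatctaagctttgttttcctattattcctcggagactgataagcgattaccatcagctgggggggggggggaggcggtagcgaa
Syt9, chr7:107370540-107370789, plus strand: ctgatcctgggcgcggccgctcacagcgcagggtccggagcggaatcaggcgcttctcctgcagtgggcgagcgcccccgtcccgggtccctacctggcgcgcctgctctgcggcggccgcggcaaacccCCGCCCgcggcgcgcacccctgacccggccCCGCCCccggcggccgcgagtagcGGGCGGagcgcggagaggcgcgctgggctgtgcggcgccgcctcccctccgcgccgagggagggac
Syt11, chr3:88772600-88772849, minus strand: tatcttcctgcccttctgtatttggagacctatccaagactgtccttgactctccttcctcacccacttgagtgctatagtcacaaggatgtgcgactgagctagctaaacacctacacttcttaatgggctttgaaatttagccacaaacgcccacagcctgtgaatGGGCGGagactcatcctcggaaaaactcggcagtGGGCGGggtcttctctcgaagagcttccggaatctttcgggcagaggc

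The promoters differed in base composition. The Syt9 stretch held 40 CG pairs at 80.4% GC with 3 GC boxes, against 8 CG pairs at 56.4% GC with 1 GC box before the first Syt1 start and 5 CG pairs at 42.8% GC with no GC box before the second. The Syt11 stretch held 9 CG pairs at 51.2% GC and 2 GC boxes, and the Syt2 stretches held 30 and 22 CG pairs with 3 and 2 GC boxes. The medians over 32851 listed promoters were 6 CG pairs and 52.4% GC, and 32.74% of them held a GC box. The Ikaros core TGGGAA, searched on both strands, occurred in the Syt6 stretches of 2 of its 3 starts and in no other of the 10 stretches of these genes, against 21.59% of all promoters. The Otx and Crx core TAATCC (6.252% of all promoters), the POU octamer ATTTGCAT (1.601%) and the full cyclic AMP element TGACGTCA (1.546%) occurred in none of the 10 stretches. No motif overlapped another in the sequences printed, and an absent match says only that these letters were not in this window.

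At the first Syt1 start, the RefSeq promoter stretch of 300 bases collected 488 fragments over all cells of both libraries, more than 86.4% of promoters, and the second start, which lies within the gene, collected 19. Levels are given as CPM, the fragments that overlap a stretch or window per 1000000 fragments of the cells concerned. By cluster over both libraries, the first start gave 51.3 CPM in rod-like cluster 5, 31.9 in cone-like cluster 2, 31.6 in bipolar-like cluster 4 and 26.5 in bipolar-like cluster 0. It gave 5.63 in Muller glia-like cluster 1 (95% Poisson interval 3.44 to 8.70, 20 fragments) and 3.76 in cluster 3 (1.51 to 7.74, 7 fragments), and none in microglia-like cluster 6, where a count of 0 allows up to 2.11 CPM, taking 3 fragments as the limit. Amacrine-like cluster 7 gave 17.5 (9.02 to 30.5, 12 fragments) and unnamed cluster 8 gave 10.3 (4.93 to 18.9, 10 fragments). All Poisson intervals here cover counting error only, since cells are not replicates. The control library had 89 fragments at this start in cluster 0 and 79 in cluster 2, and the Ikzf1/4 library 39 and 58, which is 26.8 against 25.8 and 34.9 against 28.6 CPM. In cluster 5 the control library had 17 fragments (29.7 CPM) and the Ikzf1/4 library 89 (59.6 CPM), so that cluster 5 was highest with Ikzf1/4 but read below cluster 2 and level with cluster 4 (29.5) in the control. Cluster 1 read 4.50 in the control and 9.04 with Ikzf1/4, on 12 and 8 fragments.

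**Figure D2:**
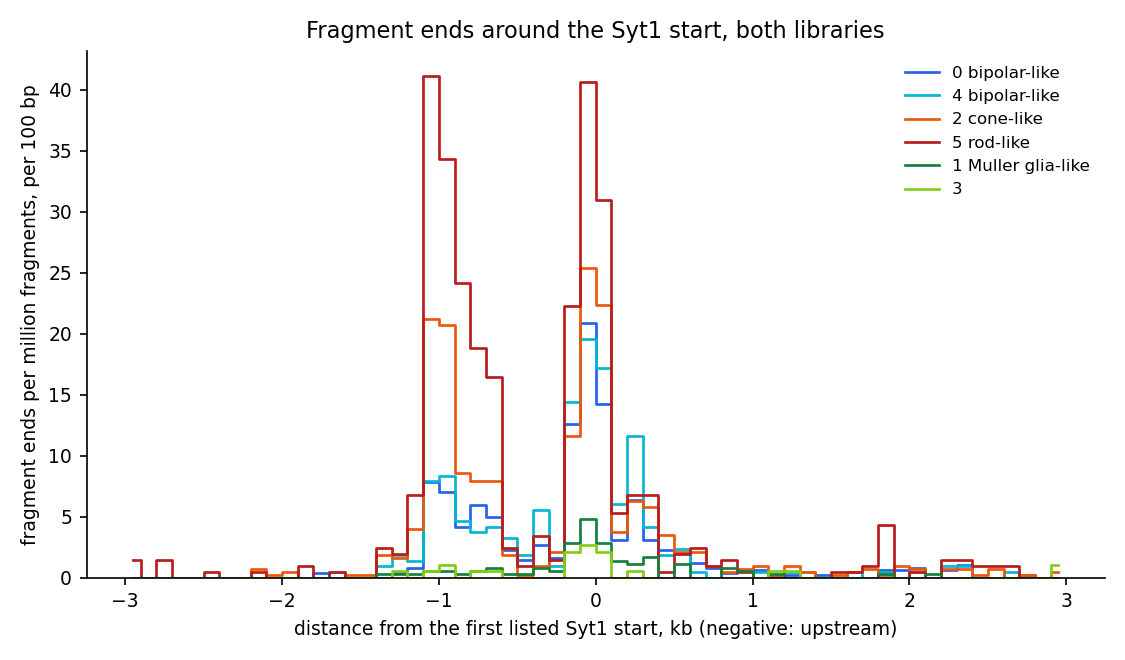
Fragment ends per 1000000 fragments in steps of 100 bp (y axis) against distance from the first listed Syt1 start in kb (x axis, negative upstream), by cluster, both libraries together. Both photoreceptor-like clusters have a peak near -1 kb beside the peak at the start, lower in the bipolar-like clusters, while Muller glia-like cluster 1 and cluster 3 stay low at both places.

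A further open stretch of Syt1 lay upstream of that start. The 500 bp beginning 0.675 kb from the start collected 71.1 CPM in rod-like cluster 5 and 36.1 in cone-like cluster 2, against 15.3 and 15.8 in bipolar-like clusters 0 and 4 and 1.69 and 1.61 in clusters 1 and 3. Cluster 5 read 47.1 in the control, on 27 fragments, and 80.3 with Ikzf1/4, and was highest in both libraries. A stretch of 500 bp inside the gene, 329 kb from the second listed start, was also highest in photoreceptor-like cells. It had 20.3 and 18.2 CPM in clusters 5 and 2, against 10.7 in cluster 4 and 3.52 in cluster 0. The interval of cluster 4 (6.78 to 16.1) overlaps those of clusters 5 (14.6 to 27.5) and 2 (14.4 to 22.7), and in the control library cluster 4 read 15.4. The reverse pattern occurred 484 kb from the second listed start, near the far end of the gene. Clusters 1 and 3 had 19.996 and 11.8 CPM there, and clusters 0, 2, 4 and 5 had 1.65, 0.233, 0.931 and 0.484. The gene thus held stretches with their highest values in photoreceptor-like clusters and 1 with its highest values in clusters 1 and 3.

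Over the whole Syt1 window (chr10:108495650-109012980), accessibility over both libraries followed the same order. Rod-like cluster 5 had 384 and cone-like cluster 2 had 336 CPM, and cluster 3 had 118, a ratio of 3.25 between highest and lowest (95% interval 2.80 to 3.79). The control library read 356, 358 and 121 in clusters 5, 2 and 3, and the Ikzf1/4 library 395, 311 and 111. Among clusters 0 to 5, the highest differed between the libraries, cluster 2 in the control and cluster 5 with Ikzf1/4, while cluster 3 was lowest in both. Microglia-like cluster 6 read lower still, at 67.8 in the control and 55.0 with Ikzf1/4, on 79 and 14 fragments. Amacrine-like cluster 7, with 74 control cells, read 349.9 in the control library.

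Syt9, another fast sensor, was most open in bipolar-like cluster 4, where the bipolar markers Prkca, Trpm1 and Isl1 are among the leading genes. Its window (chr7:107368349-107550656) had 238 CPM in that cluster in the control library and 242 in the Ikzf1/4 library, against 123 and 104 in bipolar-like cluster 0. Of the clusters compared between the libraries, cluster 3 had the lowest values, at 36.9 and 19.6. The intervals of cluster 4 (220.3 to 262 over both libraries) and of the next cluster (108 to 127) do not overlap, and the ratio of highest to lowest was 7.59 (5.79 to 10.1). The Syt9 start itself was highest in cluster 4, at 24.7 CPM against 12.4 in cluster 0 and 2.68 in cluster 3 over both libraries. This order came from the Ikzf1/4 library (32.2 against 10.6 in cluster 0), while the control read 11.5 in cluster 4, on 9 fragments, and 13.2 in cluster 0.

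Syt2, the third fast sensor, was flatter over its window (chr1:134644534-134755149), from 93.1 CPM in cluster 4 to 54.8 in cone-like cluster 2. A single stretch of 500 bp inside the gene, 26.3 kb from the nearest listed start, was far more selective: bipolar-like clusters 4 and 0 had 20.007 and 13.03 CPM there, the cone-like and rod-like clusters 1.86 and 1.45, and clusters 1 and 3 had 0.282 and 0.537. Of the 124 fragments at this stretch, 63 came from cluster 0 and 43 from cluster 4. The 2 listed Syt2 starts collected 55 and 50 fragments each. The Syt2 window overlaps that of Ppp1r12b, so fragments near the shared end count for both genes.

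**Figure D3:**
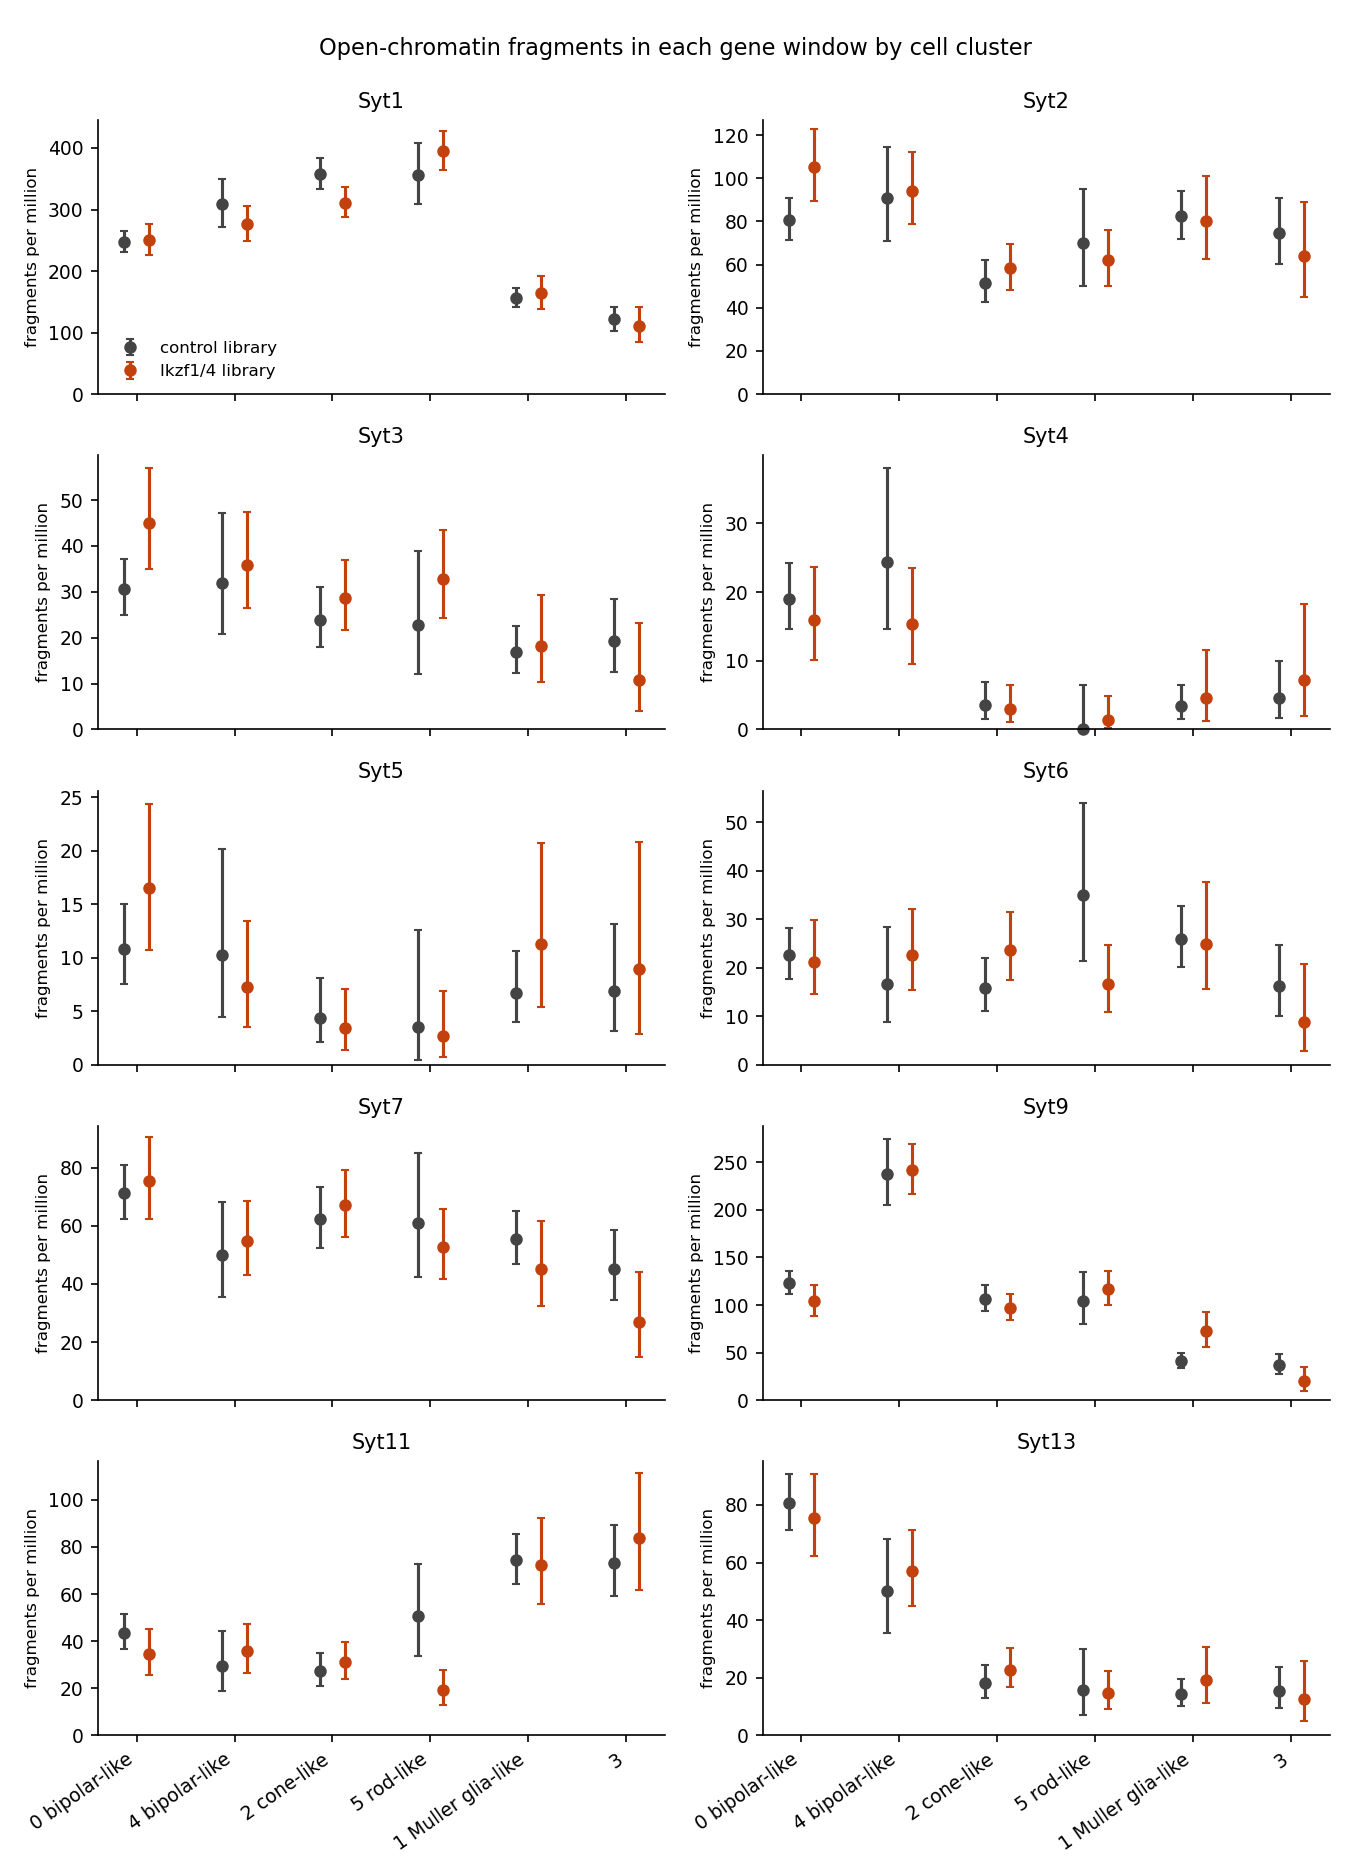
CPM in the window of each of the 10 genes (y axis, from 0) for the 6 clusters with at least 50 cells in each library, control library in grey and Ikzf1/4 library in orange, bars showing 95% Poisson intervals of the counts. Syt1 is high in photoreceptor-like clusters, Syt9 in cluster 4, Syt4 and Syt13 in both bipolar-like clusters and Syt11 in clusters 1 and 3.

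Syt4 and Syt11, related in sequence, were most open in different clusters: among the 6 compared, Syt4 in bipolar-like clusters 0 and 4 and Syt11 in clusters 1 and 3. The Syt4 window (chr18:31435808-31449415) held 130 control fragments and 64 Ikzf1/4 fragments in all. Bipolar-like clusters 0 and 4 had 18.9 and 24.3 CPM in the control library and 15.9 and 15.3 in the Ikzf1/4 library, and amacrine-like cluster 7 had 24.9 in the control. Clusters 1 and 3 had 3.38 and 4.61 in the control and 4.52 and 7.13 with Ikzf1/4, and cone-like cluster 2 had 3.53 and 2.96. Rod-like cluster 5 had 0 fragments in the control, which allows up to 5.24 CPM by the same limit of 3 fragments, and 2 fragments in the Ikzf1/4 library. Over both libraries clusters 4 and 0 could not be ordered (18.6 and 18.0 CPM), while both lay above the other 4 of the 6 clusters compared, with intervals that do not overlap. The most open 500 bp of Syt4 sat at the upper end of the gene, where cluster 0 had 7.86 CPM (5.56 to 10.8, 38 fragments), cluster 4 had 3.26 (7 fragments) and amacrine-like cluster 7 had 8.73 (3.20 to 19.0, 6 fragments). Clusters 1, 2, 3 and 5 had 0 to 0.563 there.

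Syt11 had its highest values in Muller glia-like cluster 1 and in cluster 3, in both libraries. Its window (chr3:88742699-88777159) had 74.3 and 73.0 CPM in clusters 1 and 3 of the control library and 72.3 and 83.8 in the Ikzf1/4 library. Bipolar-like cluster 0 had 43.6 and 34.4, and cone-like cluster 2 had 27.4 and 31.1. Rod-like cluster 5 had 50.6 in the control, on 29 fragments, and 19.4 with Ikzf1/4. The start shown above was open in all of clusters 0 to 5, between 6.98 CPM in cluster 3 and 14.3 in cluster 0 over both libraries. The libraries differed there: cluster 0 read 17.1 in the control and 7.94 with Ikzf1/4, and cluster 5 read 20.9 and 8.70, so that cluster 5 was highest in the control and cluster 2 (14.3) with Ikzf1/4. A stretch of 500 bp inside the gene, 13.9 kb from that start, held part of the difference: clusters 1 and 3 had 23.7 and 19.9 CPM there, and clusters 0, 2, 4 and 5 between 0.465 and 1.45. Of the 142 fragments at that stretch, 84 came from cluster 1 and 37 from cluster 3. Another stretch, 0.901 kb from the start, also read higher in these clusters, at 5.25 and 6.15 in the control and 3.39 and 12.5 with Ikzf1/4. Clusters 0, 2, 4 and 5 read 0 to 2.41 and 0 to 2.19, but 3.39 and 2.19 rested on 3 fragments each. Microglia-like cluster 6 read 4.29 in the control. At 0.401 kb, clusters 1 and 3 read 5.25 and 3.07 in the control, against 2.71 in cluster 0. With Ikzf1/4, cluster 0 (5.96) lay there between clusters 1 and 3 (5.65 and 8.91).

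**Figure D4:**
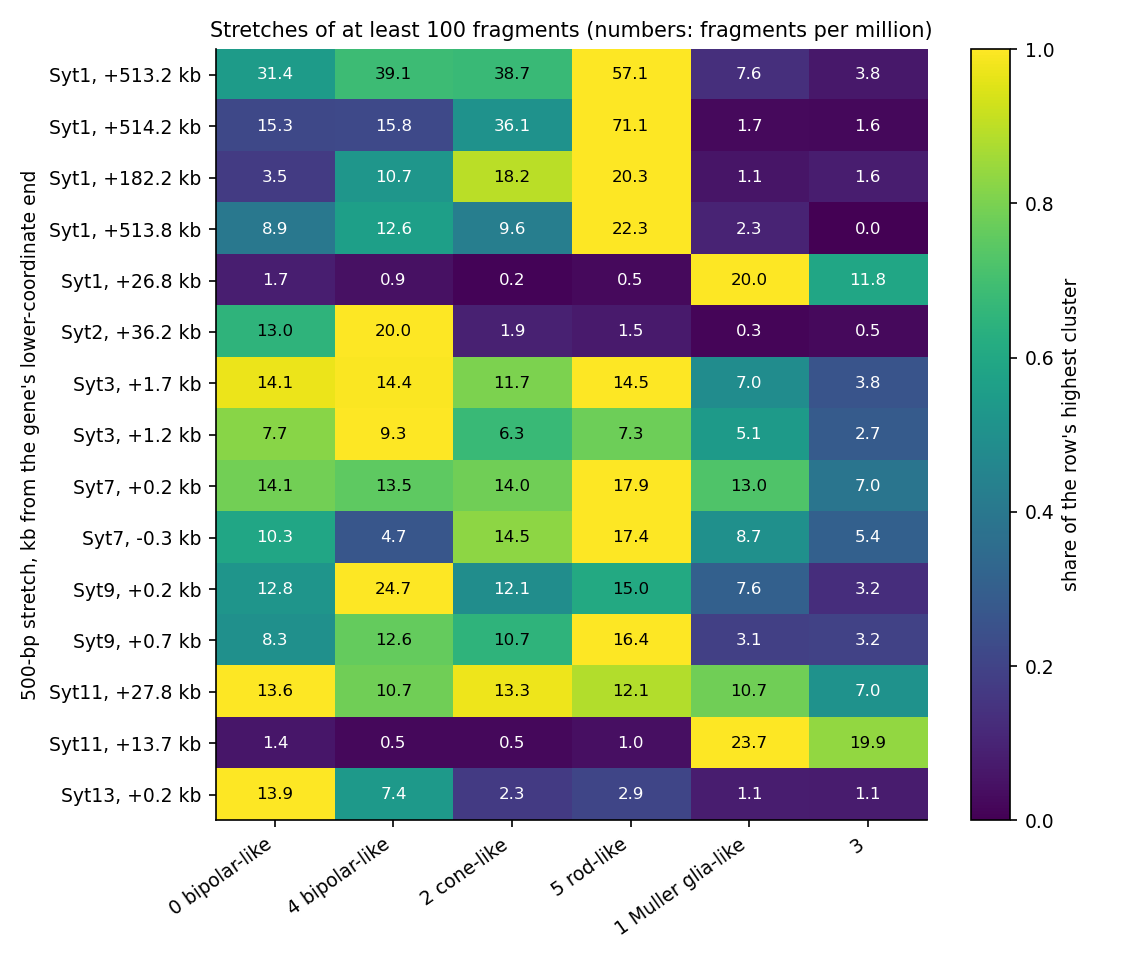
CPM (numbers) in the 500-bp stretches that collected at least 100 fragments over all cells, among the 5 most covered of each gene, for 6 clusters, both libraries together. Each row gives the gene and the distance of the stretch from the gene's lower-coordinate end (Syt1 and Syt11 start at the upper end), and colour shows the value as a share of the row's highest: 1 Syt1 stretch and 1 Syt11 stretch stand out in clusters 1 and 3.

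Syt13 resembled Syt4 in its cluster pattern. Its window (chr2:92913101-92958051) had 80.6 and 75.5 CPM in cluster 0 of the control and Ikzf1/4 libraries and 49.96 and 57.0 in cluster 4, with 73.1 in amacrine-like cluster 7 of the control. Clusters 1, 2, 3 and 5 lay between 14.3 and 18.1 in the control and between 12.5 and 22.7 with Ikzf1/4. The lower gene end held 115 fragments in 500 bp, at 13.9 CPM in cluster 0, 7.44 in cluster 4 and 1.07 to 2.90 in clusters 1, 2, 3 and 5. Both genes were also lower in fibroblasts with Ikzf1 and Ikzf4 in the authors' deposited table, which chose them, and no test links the measurements. Syt5 and Syt7, which like Syt13 were highest in cluster 0 among clusters 0 to 5 of both libraries, stood at 0.63 and -0.19 in that table. Syt2 and Syt3, which like Syt4 were highest in cluster 4 of the control and cluster 0 with Ikzf1/4, stood at 0.11 and -0.55. Nothing is read from these values.

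Of the remaining calcium-binding members, Syt5 had 12.6 CPM in cluster 0 and 2.90 in rod-like cluster 5 (window chr7:4537765-4549541, 61 and 6 fragments), with 20.2 in amacrine-like cluster 7 of the control. Syt3 (chr7:44380773-44402030) had 35.2 in cluster 0 and 34.4 in cluster 4 against 16.6 in cluster 3, where the control read 19.2 and the Ikzf1/4 library 10.7. Syt7 (chr19:10386802-10455181) had 72.6 in cluster 0 and 39.7 in cluster 3, with its most open stretch, at the lower gene end, between 8.45 and 19.2 in clusters 0 to 5 of the control and between 3.57 and 19.9 with Ikzf1/4. Syt6 (chr3:103573245-103647567) had 25.6 in cluster 1 and 14.0 in cluster 3 over both libraries. In the control library it was highest in rod-like cluster 5 (34.9, 20 fragments), which read 16.7 with Ikzf1/4, while cluster 1 read 25.9 and 24.9 and cluster 3 16.1 and 8.91. Its most covered 500 bp, before the listed starts, had 5.35 in Muller glia-like cluster 1 and 2.68 in cluster 3 on 19 and 5 fragments, against 0.466 to 1.94 in clusters 0, 2, 4 and 5. The windows of Syt1, Syt3, Syt5 and Syt7 overlap those of Gm5136, 1700008O03Rik, Ptprh and Lrrc10b.

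Over both libraries, amacrine-like cluster 7 read above all of clusters 0 to 5 for Syt4, Syt5, Syt6 and Syt7. Microglia-like cluster 6 read below them for Syt1, Syt3, Syt9 and Syt13, and cluster 8 for Syt5. Among clusters 0 to 5 alone, the ratio of highest to lowest ranged from 1.70 for Syt2 to 19.2 for Syt4 (4.99 to 164, on 2 fragments in the lowest cluster). It was 1.83 for Syt7, 1.84 for Syt6, 2.11 for Syt3, 2.72 for Syt11, 4.35 for Syt5 and 5.45 for Syt13. The median over 14846 windows of at least 150 fragments was 2.25, and Syt2, Syt3, Syt6 and Syt7 lay below it. The highest and lowest clusters were picked by their values, which the intervals do not cover. Windows were not matched in their number of fragments, so positions against such a median are a description. Of clusters 0 to 5, cluster 3 was lowest for 6 of the 10 genes over both libraries. In cluster 3, 67.6% of fragments lay in gene windows of any kind, against 80.6% in rod-like cluster 5. Per fragment in all gene windows, cluster 3 was lowest for 5 of the 10 genes and the ratios ranged from 1.72 for Syt7 to 21.3 for Syt4, with Syt2, Syt3, Syt6 and Syt7 again below the median over all windows (2.10). For 4 of the 10 genes (Syt5, Syt7, Syt9 and Syt13) the highest cluster was the same in both libraries, and for 7 with a minimum of 10000 fragments per cell. No share over all windows was computed for these counts of lowest and highest clusters, so nothing particular to the 10 genes is read from them. Per kb of window over all control cells, Syt11 was the most open at 1.41 CPM per kb and Syt6 the least at 0.283, with Syt4 at 0.718 and Syt1 at 0.446. In the Ikzf1/4 library Syt3 was the most open at 1.45, with Syt11 at 1.17, and Syt6 again the least at 0.276.

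Between the libraries, summed over all cells, 3 of the 10 genes had a higher CPM with Ikzf1/4 and 1 had a lower one, by 95% counting intervals that exclude 1. Over 17535 windows of at least 50 fragments, 33.4% had an interval above 1 and 14.3% below 1. There was 1 library per condition, so these intervals cover counting error only and no test between conditions was possible. Syt3 read 23.0 CPM in the control and 30.7 with Ikzf1/4, a ratio of 1.34 (1.13 to 1.58). Syt9 read 91.1 and 114, a ratio of 1.25 (1.15 to 1.36), and Syt1 read 231 and 266, a ratio of 1.15 (1.09 to 1.22). Syt11 was lower, at 48.6 and 40.2, a ratio of 0.828 (0.724 to 0.945), which with a minimum of 10000 fragments per cell became 0.850 with an interval that includes 1 (0.714 to 1.01). Syt4 read 9.77 and 7.51, a ratio of 0.769 whose interval (0.561 to 1.04) includes 1. Per fragment in all gene windows the ratio of Syt4 was 0.722 and its interval (0.527 to 0.981) lay below 1. The remaining ratios were 1.10 for Syt2, 0.978 for Syt13, 0.976 for Syt6, 0.974 for Syt5 and 0.968 for Syt7, with intervals that include 1. The median of the 10 ratios was 0.977, against 1.07 over all windows.

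The libraries differed in their clusters as well. Rod-like cluster 5 was 5.02% of control cells and 20.4% of Ikzf1/4 cells, bipolar-like cluster 4 was 6.25% and 17.2%, and cone-like cluster 2 was 13.9% and 20.9%, while clusters 0, 1 and 3 were 27.8%, 19.6% and 14.2% of control cells and 17.5%, 8.61% and 10.9% of Ikzf1/4 cells. With the 6 clusters given the same shares in both libraries, an alternative added after the data were seen, the ratio of Syt1 was 0.972 and that of Syt9 0.982. Syt3 remained at 1.22, Syt11 was 0.921 and Syt4 0.866, and the median over all windows was 1.04. The ratios of Syt1 and Syt9 above 1 over all cells were thus not present at equal cluster shares.

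Within clusters, 58 ratios of the 10 genes rested on at least 10 fragments, of which 3 had intervals above 1 and 3 below. Over 97951 such ratios of all windows, 9.26% lay above and 4.75% below. The 3 above 1 were Syt2 in cluster 0 (1.31, 1.07 to 1.59), Syt3 in cluster 0 (1.47, 1.06 to 2.01) and Syt9 in Muller glia-like cluster 1 (1.77, 1.28 to 2.43, 109 control and 64 Ikzf1/4 fragments). The 3 below 1 were Syt1 in cone-like cluster 2 (0.868, 0.781 to 0.964), Syt6 in rod-like cluster 5 (0.479, 0.256 to 0.910) and Syt11 in rod-like cluster 5 (0.384, 0.221 to 0.665, 29 fragments in each library). For Syt4, no cluster had an interval that excludes 1, with ratios of 0.838 in cluster 0 and 0.631 in cluster 4 on 24 and 21 Ikzf1/4 fragments.

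**Figure D5:**
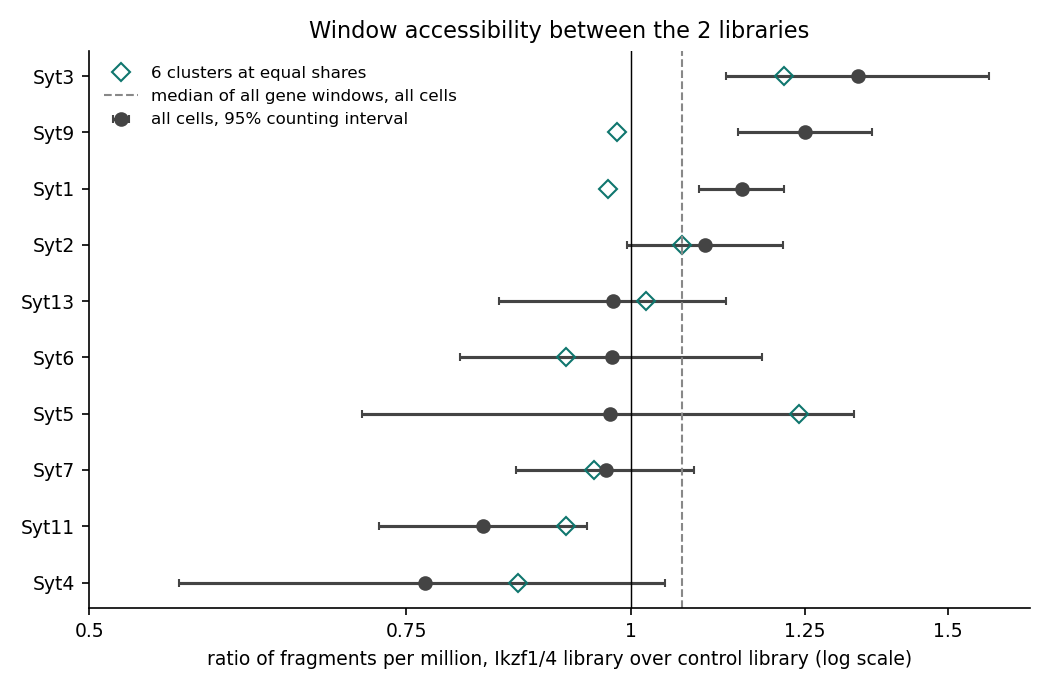
Ratio of CPM in each gene window, Ikzf1/4 library over control library (x axis, log scale), over all cells with 95% counting intervals (circles) and with 6 clusters at equal shares (diamonds). The circles of Syt1 and Syt9 lie at 1.15 and 1.25 and their diamonds at 0.972 and 0.982, and the dashed line marks the median of all windows over all cells, 1.07.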

How the data were processed

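The members and gene lists were chosen with earlier results of these data known. Per the submitters' processing notes, Salmon, DESeq2, Bowtie2, MACS2 and Cell Ranger ARC 2.0 were used, and per the file headers the fragment files come from cellranger-arc 2.0.1 on mm10. The authors' deposited table gives, per gene, a mean of normalised counts (a signal that is never negative), a log2 fold change, the standard error of that change, the Wald statistic as a score, and a raw and an adjusted p-value. The deposited Salmon files give estimated counts per transcript, which were rounded for edgeR 4.0.16 (filterByExpr, TMM, quasi-likelihood test, Benjamini-Hochberg adjustment). Nothing shows that the numbered fibroblast libraries came from separate cultures, so p-values measure the spread between these samples, which may be technical. The planned sum of counts per gene could not be made, so the fit stayed per transcript. In the fragment files the authors deposited a count of read pairs for each unique fragment. Fragments, not pairs, were counted here.

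Barcodes with at least 3000 fragments and an enrichment at starts of at least 4 were kept, without those above the 99th percentile of fragments per library. No doublet caller was run. Cells were clustered on 16643 gene windows (TF-IDF, 31 singular vectors of which 1 was left out for depth, 20 neighbours, Leiden resolution 1), leaving out 160 windows of listed genes and windows that overlap them. A cluster took a name where at least 3 markers and over 50% of a marker list were raised by 0.5 on the log2 scale. Ratios have exact conditional binomial intervals and levels exact Poisson intervals, both at 95%. The edgeR fit and the ratio intervals were tested on simulated data. All 10 members were described. Other genes were named by size of fold change, at most 4 a list among genes with a mean of at least 10 normalised counts. The fibroblast ATAC-seq peaks, the single-cell RNA data and values of members per RNA library were not analysed here. Alternatives covered normalisation, filters, the replicate block, left-out libraries, cell filters, window width and scaling.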

Additional observations from a re-analysis of the deposited data

How the results depend on the processing

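The transcript count called between the fibroblast groups was 3095 and moved with nearly every choice: 7372 with DESeq2, 1849 without a filter on low counts, between 728 and 1701 when 1 library was left out, and 8 with a replicate block. With RLE factors it was 2959. The replicate numbers showed no sign of pairing, although 3 libraries a group cannot exclude it. Same-numbered deviations correlated at -0.0172, -0.000523 and 0.00531, and 1 of 3 libraries without Ikzf1/4 correlated best with its own number. The cause of the lower counts was not tested. No synaptotagmin value rests on this fit. Requiring an absolute log2 fold change over 1 left 1 of the 5 called members, with no share over all genes computed, so nothing is read from it. The summed ratio of the 10 windows between the retinal libraries was 1.10. Per fragment in all gene windows it was 1.03. At equal cluster shares, where no intervals were made, the summed ratio was 0.991, and Syt1 (0.972) and Syt9 (0.982) also read below 1. On the scale of fragments in gene windows, 21.0% of all windows lay above 1 and 20.8% below, and of the members 3 lay above and 2 below, Syt11 and Syt4 (0.722, 0.527 to 0.981). With a minimum of 10000 fragments Syt11 (0.850, 0.714 to 1.01) no longer lay below 1 and Syt2 (1.16, 1.01 to 1.33) lay above, and with all barcodes Syt13 (0.864, 0.789 to 0.946) lay below. Members with the same highest cluster in both libraries numbered 7 with a minimum of 10000 fragments, against 4, and no share over all windows was computed. The summed ratio stayed within its counting interval in the other 6 alternatives. Single values of the members, over libraries and by cluster, left their counting interval in 66 of 130 cases per fragment in all gene windows, which has a smaller denominator, in 31 of 130 with a minimum of 10000 fragments and in 11 of 130 with the gene body only. The alternatives for fibroblast peaks were not run. Depth limits Syt4 and Syt5 most, with 194 and 177 fragments over both libraries.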
